A study of Mus musculus with 4 samples.

Results

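A set of 10 genes of the piRNA pathway and of germ cell RNA binding was followed in mouse embryonic stem cells in which Ssrp1 had been targeted: Dazl, Ddx4, Mael, Tdrd1, Tdrkh, Tdrd9, Asz1, Mov10l1, Piwil2 and Tex19.1. They were chosen by symbol, and all 10 were found among the 55353 gene symbols of the count table. The cells were E14 embryonic stem cells, with the strain given as 12910la, grown on gelatin in medium with 15% serum and 10 ng/ml LIF. Wild-type cells gave 2 libraries (control 1 and control 2), and cells of the genotype Ssrp1 KO, made with Cas9 and a guide RNA, gave 2 (knockout 1 and knockout 2). The treatment text also speaks of wild-type cells transfected with the pSuper puro vector and selected with puromycin, next to a Usp7 shRNA, and leaves unsaid whether these controls were so treated. It gives neither the number of knockout lines nor whether libraries with 1 genotype stem from separate cultures, so p-values measure the spread between these libraries, which may be technical. Ribosomal RNA was removed from total RNA before strand-specific sequencing.

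PIWI-interacting RNAs (piRNAs) are small RNAs of the germline that guide PIWI proteins to transposon transcripts and, in fetal male germ cells, to transposon DNA that then becomes methylated. PIWI proteins carry methylated arginines, which Tudor domain proteins bind to assemble the pathway in cytoplasmic granules near mitochondria. Many of these genes have CpG-rich promoters that are methylated and silent in somatic cells, and embryonic stem cells transcribe several of them at a low level. Ssrp1 is a subunit of FACT, a histone chaperone that handles nucleosomes during transcription and replication.

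The promoters of the genes whose RNA changed are shown first, with Ddx4, which held both motifs searched and was not called. Each window runs from 250 bases before to 50 bases after the annotated start and is written 5′ to 3′ on the gene's strand, from RefSeq on build GRCm38.p6. Capitals mark CACGTG (an E-box, bound by MGA with MAX) and TCCCGC or its reverse complement GCGGGA (the core of an E2F6 site). Both motifs were searched on both strands, and their matches share no base in these windows. MGA, MAX and E2F6 belong to PRC1.6, a Polycomb complex that represses germline genes in embryonic stem cells.
Dazl promoter (chr17:50293571-50293870, minus strand): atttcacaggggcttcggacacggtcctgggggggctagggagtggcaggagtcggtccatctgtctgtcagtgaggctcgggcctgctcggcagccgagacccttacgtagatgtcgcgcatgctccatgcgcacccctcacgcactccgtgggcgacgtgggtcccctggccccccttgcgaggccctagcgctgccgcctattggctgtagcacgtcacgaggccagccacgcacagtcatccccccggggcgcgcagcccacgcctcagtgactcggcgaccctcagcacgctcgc
Tex19.1 promoter (chr11:121145893-121146192, plus strand): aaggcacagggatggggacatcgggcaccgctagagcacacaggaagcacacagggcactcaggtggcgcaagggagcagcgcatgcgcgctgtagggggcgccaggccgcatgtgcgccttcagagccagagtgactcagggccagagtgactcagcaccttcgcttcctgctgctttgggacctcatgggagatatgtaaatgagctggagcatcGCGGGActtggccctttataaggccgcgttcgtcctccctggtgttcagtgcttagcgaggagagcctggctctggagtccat
Mael promoter (chr1:166238695-166238994, minus strand): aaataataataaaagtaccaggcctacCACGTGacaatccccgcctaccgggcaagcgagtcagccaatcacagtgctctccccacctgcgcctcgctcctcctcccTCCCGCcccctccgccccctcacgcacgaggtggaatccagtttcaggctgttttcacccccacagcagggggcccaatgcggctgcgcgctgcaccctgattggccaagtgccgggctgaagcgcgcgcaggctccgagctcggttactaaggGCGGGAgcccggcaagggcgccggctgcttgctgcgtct
Ddx4 promoter (chr13:112652261-112652560, minus strand): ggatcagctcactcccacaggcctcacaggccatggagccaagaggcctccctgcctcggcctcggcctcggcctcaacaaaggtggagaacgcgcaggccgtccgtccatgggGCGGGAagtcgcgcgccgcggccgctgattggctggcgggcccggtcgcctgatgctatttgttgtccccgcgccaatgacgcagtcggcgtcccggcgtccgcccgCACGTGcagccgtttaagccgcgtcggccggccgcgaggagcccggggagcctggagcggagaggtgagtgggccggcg
Tdrkh promoter (chr3:94412994-94413293, plus strand): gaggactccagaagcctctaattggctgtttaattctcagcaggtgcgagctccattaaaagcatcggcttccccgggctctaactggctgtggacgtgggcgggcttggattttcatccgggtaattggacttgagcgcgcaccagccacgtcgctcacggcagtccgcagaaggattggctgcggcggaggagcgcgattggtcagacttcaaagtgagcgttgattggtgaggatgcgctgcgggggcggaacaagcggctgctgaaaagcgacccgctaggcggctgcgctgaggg

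RefSeq promoter windows were matched by symbol for 9 of the 10 genes, 11 windows in all. An E-box was found for 5 of them (Ddx4, Mael, Tdrd1, Tdrd9 and Mov10l1), and 7.15% of all 32851 promoter windows hold one. The E2F6 core was found for 3 (Ddx4, Mael and Tex19.1), against 19.98% of all windows. Ddx4 and Mael held both, as did 1.99% of all windows. These are counts of genes, with Tdrd1 counted over 3 windows, set beside shares of single windows. Both motifs contain a CpG, and most of these windows are richer in CpG than the median window, so the shares are not a like background. Of the 3 genes whose RNA rose, Mael held both motifs, Tex19.1 held the E2F6 core and Dazl held neither in this window. Tdrkh, which fell, held neither. Of those not called, Ddx4 held both, Tdrd1, Tdrd9 and Mov10l1 held an E-box, and Piwil2 had no window. Whether the motifs bear on how the RNA moved was not tested. The 11 windows held 3 to 38 CpG, against a median of 7 over all windows: the printed ones had 28 at Dazl, 38 at Ddx4, 24 at Mael, 25 at Tdrkh and 16 at Tex19.1, while that of Tdrd9 had 10 and the 3 of Tdrd1 had 20, 25 and 3. These matches describe letters in a window and are not binding sites.

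Total counts were 22611434 to 25344190 per library, and counts below are given as CPM, which is scaled to a common library size by the TMM method. Gm26917 and Gm42418, which resemble ribosomal RNA, took 9.72% and 10.3% of the total in control 1 and control 2, against 6.30% and 4.64% in the KO-labelled libraries. Ssrp1 itself was at 282.2 and 305.7 CPM in the controls, against 305.5 and 327.3 CPM in the KO-labelled libraries (log2 fold change 0.11 ± 0.06, SE, adjusted p 0.226 by edgeR's quasi-likelihood test). Its transcript level therefore does not check the labels, and the treated libraries are called KO-labelled throughout. Supt16, the other FACT subunit, was at 891.4 ± 12.8 and 1015.0 ± 54.1 CPM (SD, n = 2; edgeR adjusted p 0.018), a call that was lost without control 1 (0.235) or control 2 (0.139).

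The 10 genes did not move as a block. Of the 9 with enough counts to test, Dazl, Tex19.1 and Mael rose by 1.53-fold to 2.22-fold, Tdrkh fell to 0.551 of its control level, and Ddx4, Piwil2, Mov10l1, Tdrd1 and Tdrd9 did not pass the test. All 9 had at least 16 counts in every library, so none was tested only through the group where it was high. By edgeR at an adjusted p under 0.05, 3 of 9 were higher, where 16.5% of all 17482 tested genes were, and 1 of 9 was lower, where 17.2% of all tested genes were. In either direction 4 of 9 (44.4%) were called, with a background of 33.6%. For 6 of the 9 (66.7%) the groups were free of overlap, next to 66.6% of all tested genes. Their median log2 fold change was 0.22, beside 0.00 over all genes tested. With so few genes these shares are a description and set nothing apart.

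**Figure D1:**
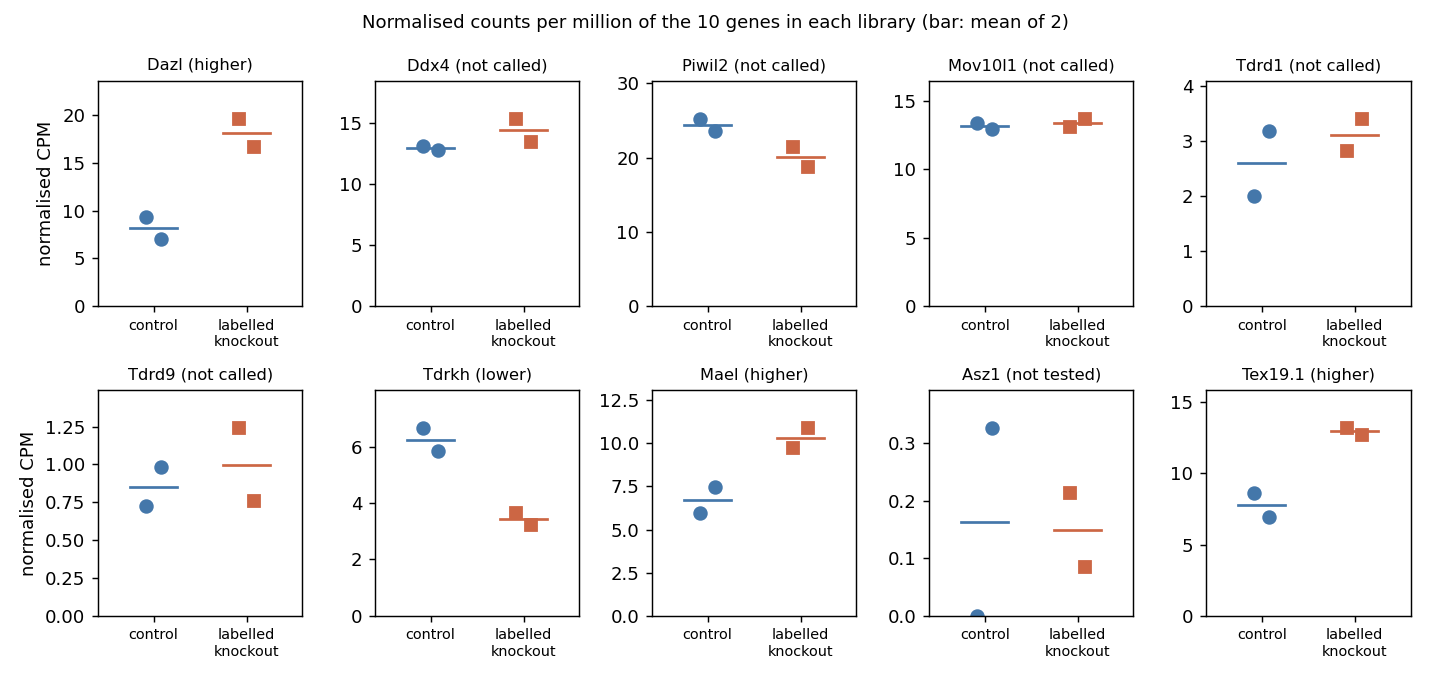
Normalised CPM (vertical axes, each from 0) of the 10 genes in the 2 control libraries (circles) and the 2 KO-labelled libraries (squares), with a bar at the mean of each group and the edgeR call in the panel title. The groups do not overlap for Dazl, Tex19.1, Mael, Tdrkh, Piwil2 and Ddx4, and interleave for Mov10l1, Tdrd1, Tdrd9 and Asz1. For Ddx4 the lower KO-labelled library is close to the controls.

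Dazl and Ddx4 encode the RNA-binding proteins by which germ cells are most often recognised. Dazl (chromosome 17, 50279395 to 50293636, mm10), which binds the 3′ ends of messenger RNAs in germ cells and controls their translation, was at 9.30 and 7.07 CPM in the controls, against 19.6 and 16.6 CPM in the KO-labelled libraries. Both KO-labelled libraries were above both controls by more than the gap within either group. The mean rose from 8.18 ± 1.58 to 18.1 ± 2.12 CPM (SD, n = 2), a log2 fold change of 1.15 ± 0.15 (SE, edgeR adjusted p 6.2e-06). It was the largest rise of the tested genes of this set. The call was made with any library left out, at log2 fold changes of 0.96 to 1.35.

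Ddx4 (chromosome 13, 112598333 to 112652475), the DEAD-box RNA helicase also called Vasa, was at 13.2 and 12.8 CPM in the controls, against 15.4 and 13.4 CPM in the KO-labelled libraries. The higher KO-labelled library stood apart, while the lower one was close to the controls. The log2 fold change was 0.15 ± 0.13, with a 95% interval from -0.12 to 0.42 and an edgeR adjusted p of 0.402. A change of Ddx4 as large as that of Dazl therefore lies outside its interval.

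Piwil2 and Mov10l1 act at the start of the pathway. Piwil2 (chromosome 14, 70372477 to 70429383), the PIWI protein MILI that binds piRNAs and cleaves transposon transcripts, had the highest level of the 10 in CPM. It was at 25.3 and 23.6 CPM in the controls, against 21.5 and 18.7 CPM in the KO-labelled libraries, with no overlap. Its log2 fold change was -0.28 ± 0.11 (95% interval for this gene alone -0.51 to -0.05), and its edgeR adjusted p of 0.060 missed the threshold. It passed with the replicate number as a block (-0.28, edgeR adjusted p 0.045) and without knockout 1 (-0.38, adjusted p 0.0097), so the result for Piwil2 sits at the edge of what these libraries can call. Mov10l1 (chromosome 15, 88982909 to 89055152), the RNA helicase that feeds piRNA precursors into processing, was at 13.4 and 12.9 CPM in the controls, against 13.1 and 13.7 CPM in the KO-labelled libraries. The groups overlapped, and the log2 fold change was 0.03 ± 0.13 with an interval of -0.24 to 0.30 (edgeR adjusted p 0.889).

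Tdrkh, Tdrd1 and Tdrd9 encode Tudor domain proteins. Tdrkh (chromosome 3, 94413273 to 94434668), a mitochondrial membrane protein that holds PIWI proteins while piRNA 3′ ends are trimmed, was at 6.67 and 5.84 CPM in the controls, against 3.64 and 3.24 CPM in the KO-labelled libraries. Both KO-labelled libraries were below both controls. The mean fell from 6.25 ± 0.584 to 3.44 ± 0.283 CPM (SD, n = 2; log2 fold change -0.86 ± 0.21, edgeR adjusted p 0.0028). Tdrkh was the only one of the 9 tested genes called lower, and it stayed called with each library left out (-0.96 to -0.77).

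The annotated exons of Tdrkh share 2255 bases with Oaz3, a testis gene on the opposite strand. Whether the counting used strand is not given in the sources used here, and without strand the reads of that stretch cannot be told apart. Oaz3 itself had 3 counts in control 2 and 0 in each of the other 3 libraries. A further gene model inside a Tdrkh intron, Gm42463, shares no exon with it and was not called (log2 fold change -0.43 ± 0.42, edgeR adjusted p 0.466).

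Tdrd1 (chromosome 19, 56826209 to 56870012), a scaffold that binds Piwil2 in germ granules, was at 2.0 and 3.19 CPM in the controls, against 2.82 and 3.40 CPM in the KO-labelled libraries. The 2 controls differed from each other more than the group means did. Its log2 fold change was 0.26 ± 0.28 (95% interval -0.34 to 0.85, edgeR adjusted p 0.523), and it was -0.04 without control 1. Tdrd9 (chromosome 12, 111971559 to 112068854), a helicase with a Tudor domain that works with the nuclear arm of the pathway, had counts of 16 and 24 in the controls, against 29 and 18 in the KO-labelled libraries. Its log2 fold change was 0.22 ± 0.47 (edgeR adjusted p 0.757), and it was -0.18 without knockout 1. At this depth its 95% interval ran from -0.76 to 1.2, so a rise as large as that of Dazl would also lie inside it.

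Mael, Asz1 and Tex19.1 complete the set. Mael (chromosome 1, 166201201 to 166238747), a germ granule protein needed for transposon silencing in the male germline, was at 5.94 and 7.47 CPM in the controls, against 9.71 and 10.9 CPM in the KO-labelled libraries. All values of the latter lay above all of the former. The mean rose from 6.71 ± 1.08 to 10.3 ± 0.830 CPM (SD, n = 2), a log2 fold change of 0.61 ± 0.17 (edgeR adjusted p 0.0066). The call was lost without control 1, where the log2 fold change was 0.45. That fit has a single control, and fewer genes were called over all in it.

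Tex19.1 (chromosome 11, 121146143 to 121148319), a mammal-specific gene of germ cells, placenta and pluripotent cells that restrains retrotransposons, was at 8.62 and 6.94 CPM in the controls. In the KO-labelled libraries it was at 13.2 and 12.7 CPM, well clear of both controls. The mean rose from 7.78 ± 1.18 to 12.9 ± 0.343 CPM (SD, n = 2; log2 fold change 0.74 ± 0.15, edgeR adjusted p 0.00075), and the call held with each library left out (0.58 to 0.89). Its paralogue Tex19.2 lies 27466 bases away on the same chromosome and had counts of 5 and 11 in the controls, against 18 and 8 in the KO-labelled libraries, which was not enough to test. How reads common to the pair were counted is not given in the sources used here.

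Asz1 (chromosome 6, 18050964 to 18109061), a mitochondrial outer membrane protein of the germ granules, was close to undetected. Its counts were 0 and 8 in the controls, against 5 and 2 in the KO-labelled libraries, and was left out by the filter. The ratio of scaled counts was 0.863 with an exact (Clopper-Pearson) 95% interval of 0.266 to 2.72, which covers counting error only. No difference in Asz1 was detectable at this depth.

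**Figure D2:**
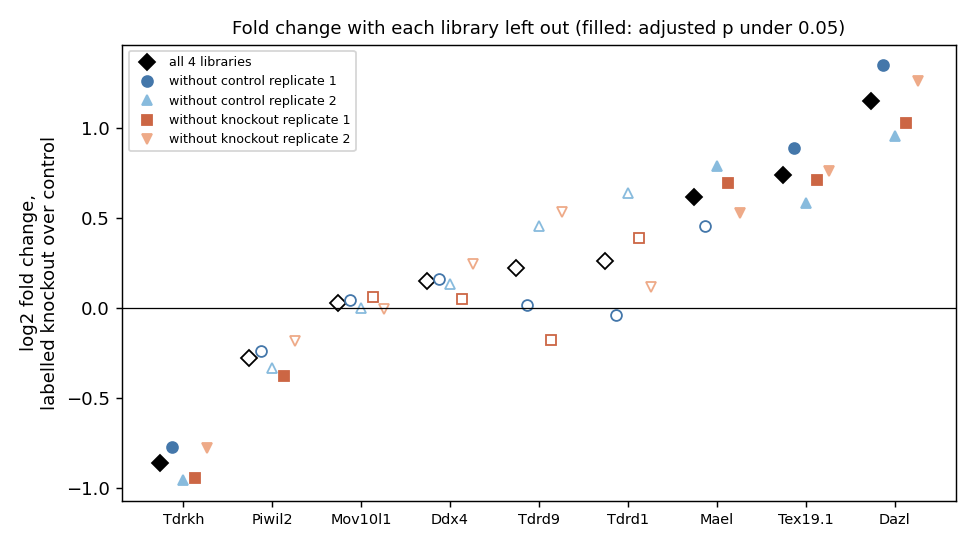
Log2 fold change (labelled knockout over control, vertical axis) of the 9 tested genes with all 4 libraries (diamonds) and with each library left out in turn (other markers), filled where the edgeR adjusted p was under 0.05. Dazl and Tex19.1 stay filled above 0 and Tdrkh below 0, Mael loses its call without control 1, and Piwil2 gains one without knockout 1. Tdrd1 lies below 0 only without control 1 (-0.04), and Tdrd9 only without knockout 1 (-0.18).

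Levels between genes were compared as CPM per kilobase of annotated exon, since longer transcripts give more counts. In the controls the order of mean levels on this scale was Piwil2 at 4.62 ± 0.221, Ddx4 at 4.31 ± 0.0764, Tex19.1 at 4.16 ± 0.632, Mael at 3.87 ± 0.626 and Mov10l1 at 3.14 ± 0.0796 (SD, n = 2). Dazl followed at 2.14 ± 0.413, then Tdrkh at 1.02 ± 0.0950, Tdrd1 at 0.476 ± 0.155, Tdrd9 at 0.158 ± 0.0333 and Asz1 at 0.0577 ± 0.0817. The values of Tex19.1 overlapped with those of Piwil2, Ddx4 and Mael, and those of Mael with those of Ddx4, so the order among these 4 is not fixed by the data. In the KO-labelled libraries Tex19.1 came first at 6.91 ± 0.183 CPM per kilobase and Mael came next at 5.94 ± 0.479. Ddx4 (4.79 ± 0.458) and Dazl (4.74 ± 0.554) overlapped there, above Piwil2 at 3.80 ± 0.366. Tdrkh, above Tdrd1 in both controls, overlapped with it in the KO-labelled libraries (0.559 ± 0.0461 and 0.572 ± 0.0754).

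The other genes of the pathway moved in both directions too. Of 29 further piRNA pathway genes, 26 were tested, of which 6 rose and 4 fell (edgeR), next to the 16.5% and 17.2% of all tested genes; their median log2 fold change was 0.09. Fkbp6, a co-chaperone used when PIWI proteins are loaded, rose from 0.538 ± 0.00933 to 4.49 ± 0.663 CPM (3.05 ± 0.34, edgeR adjusted p 8.0e-07). Its 2 controls were at 0.544 and 0.531 CPM and the KO-labelled libraries at 4.02 and 4.96 CPM. Tdrd12, a Tudor domain helicase gene of piRNA production, rose from 34.2 ± 1.81 to 59.6 ± 1.05 CPM (0.80 ± 0.08). Stk31, which encodes a Tudor domain protein with a kinase-like part, rose from 7.36 ± 0.240 to 15.2 ± 1.12 CPM (1.05 ± 0.14). Tex15, needed for methylation of transposon DNA in male germ cells, rose from 27.8 ± 0.537 to 47.4 ± 2.67 CPM (0.77 ± 0.09). The RNA helicase gene Ddx39a, listed in the table as Ddx39, rose from 200.1 ± 13.9 to 307.0 ± 25.2 CPM.

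Against these rises Piwil4, the nuclear PIWI protein MIWI2 that acts in transposon methylation, was at 7.07 and 7.84 CPM in the controls, against 2.35 and 2.56 CPM in the KO-labelled libraries. The groups were far apart, and the log2 fold change was -1.60 ± 0.21 (edgeR adjusted p 6.3e-06). The other falls were Exd1 (-0.73), Prmt5 (-0.24) and Wdr77 (-0.21), and the remaining rise was Btbd18 (0.90); these 4 are named after their values were seen. Prmt5 and Wdr77 encode the enzyme complex that methylates arginines of PIWI proteins among other targets. The falls of this list numbered 2 with scaling by library size alone, by DESeq2, and without control 1 or knockout 2, and those of Exd1, Prmt5 and Wdr77 were each lost under several settings. The call of Btbd18 was lost by DESeq2 (adjusted p 0.102) and without control 1 (0.241) or knockout 2 (0.121).

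Among 22 tested of 28 further germ cell RNA-binding and related genes with a row, 2 rose and 5 fell (edgeR), or 9.09% and 22.7% next to 16.5% and 17.2% of all tested genes, with a median log2 fold change of -0.13. Patl2, an oocyte protein that represses translation, fell, from 23.8 ± 1.43 CPM in the controls to 8.65 ± 0.311 CPM (-1.46 ± 0.13, edgeR adjusted p 2.8e-08). Tex14, which builds the bridges between germ cells and is not itself an RNA-binding protein, fell from 82.9 ± 8.59 to 45.0 ± 3.69 CPM (-0.88 ± 0.09). Msi1 (Musashi, -0.62 ± 0.08), Ybx2, which stores messenger RNA in germ cells (-0.70 ± 0.15), and Cpeb1, a regulator of poly(A) tails (-0.95 ± 0.21), fell as well. Adad2, of male germ cells, rose from 1.45 ± 0.320 to 3.26 ± 0.319 CPM (1.17 ± 0.31, edgeR adjusted p 0.0054). The other rise was that of Boll, of the same family as Dazl (1.38 ± 0.45), and it was lost by DESeq2 (adjusted p 0.076) and without control 1 (0.193), knockout 1 (0.057) or knockout 2 (0.079). Boll was named after its value was seen, and its counts were 9 and 19 in the controls, against 36 and 38 in the KO-labelled libraries. It passed the filter on low counts only through the KO-labelled libraries, where it was high, and the 2 rises count it. The rises numbered 1 without control 1 or knockout 2, and the falls 9 without knockout 1.

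**Figure D3:**
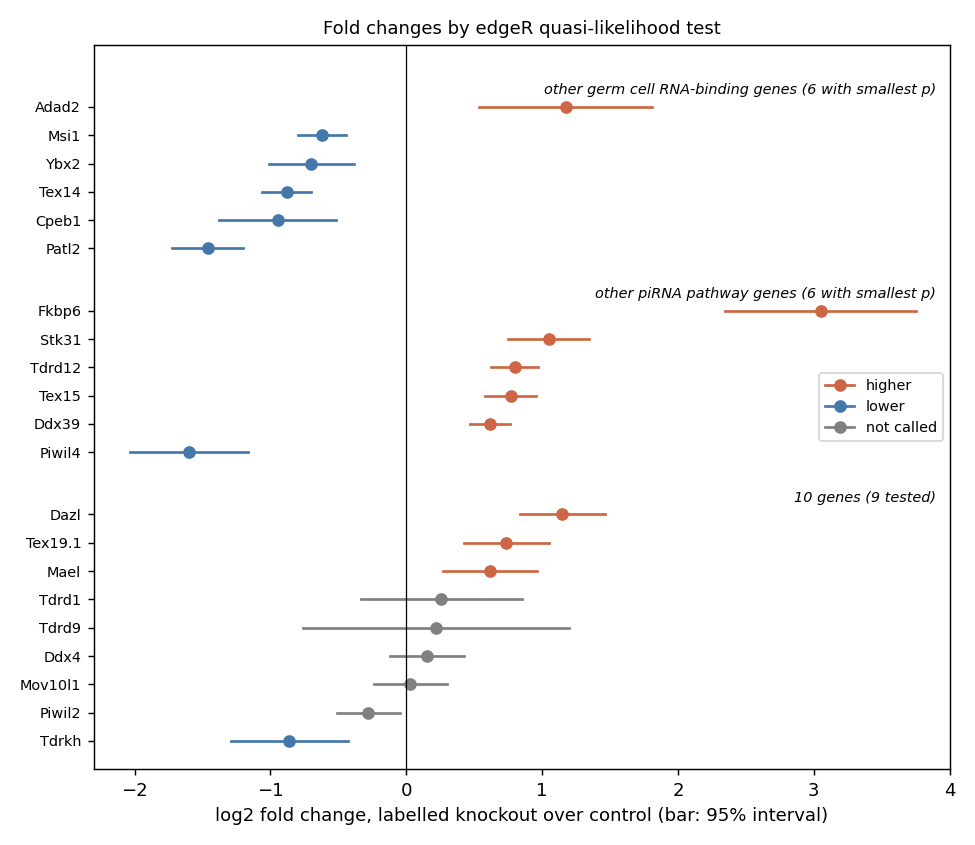
Log2 fold change with its 95% interval (horizontal axis) for the 9 tested genes (bottom) and for the 6 genes with the smallest adjusted p in each of the lists of other piRNA pathway genes (middle) and other germ cell RNA-binding genes (top). Rises are in orange, falls in blue and genes not called in grey; Fkbp6 has the largest rise at 3.05 and Piwil4 the largest fall at -1.60.

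Neighbouring genes were read at each locus. Among the 23 tested genes read within 50 kb of the 10, 3 were higher and 5 lower (edgeR), or 13% and 21.7% next to 16.5% and 17.2% of all tested genes, with a median log2 fold change of -0.16. The lower ones numbered 3 without control 1, control 2 or knockout 2, and the higher ones 1 without control 1. Mrpl9, of the mitochondrial ribosome and 8650 bases from Tdrkh, went from 24.6 ± 1.36 to 19.3 ± 1.2 CPM (-0.34 ± 0.11, adjusted p 0.020), and Riiad1, also near Tdrkh and named after its value was seen, was at -1.75 ± 0.60 (adjusted p 0.029). Riiad1 had counts of 19 and 18 in the controls, against 5 and 6 in the KO-labelled libraries. It passed the filter on low counts only through the controls, where it was high, and the 5 lower neighbours count it. Neither call was firm: with all 4 libraries kept, both were lost by DESeq2 (adjusted p 0.066 for Mrpl9 and 0.131 for Riiad1). Mrpl9 also lost its call without control 1 (log2 fold change -0.30) or knockout 2 (-0.28). Riiad1 lost it without any 1 of the 4, at log2 fold changes of -1.87 to -1.64.

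At the loci of Mael and Tex19.1, which rose, none of the 3 tested neighbours was called higher, where 16.5% of all tested genes were. So few neighbours set nothing apart. Gpa33, 34691 bases from Mael, was lower, at 54.1 ± 0.167 CPM in the controls and 36.8 ± 1.46 CPM in the KO-labelled libraries (-0.56 ± 0.08, edgeR adjusted p 3.1e-05), and Ildr2 on the other side was not called (0.25 ± 0.61). Ogfod3, the single tested neighbour of Tex19.1, was not called (0.17 ± 0.23). Of the 3 annotated genes within 50 kb of Dazl, 2 had no row and AY702103 had 0 counts in all 4 libraries. Vwa2, 4237 bases from Tdrd1, was higher (1.13 ± 0.38, adjusted p 0.027), a call lost without control 2 (0.144) or knockout 2 (0.162). Gm3226, a processed pseudogene 3249 bases from Ddx4, was higher (0.43 ± 0.11, adjusted p 0.0050) except without control 1 (0.138), and its reads may come in part from its parent gene. Slc39a14, 21052 bases from Piwil2, was higher by little (0.20 ± 0.07, adjusted p 0.043) and lost the call without control 1 (0.374), control 2 (0.126) or knockout 2 (0.132). The other nearest tested neighbours were not called, namely Slc38a9 at Ddx4, Polr3d at Piwil2, Ccdc186 at Tdrd1, Atp5mpl at Tdrd9 and Panx2 at Mov10l1. Aspg, the nearest on the far side of Tdrd9, was lower, at 14.3 ± 0.765 against 7.0 ± 1.35 CPM (-1.03 ± 0.16, adjusted p 3.3e-05).

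**Figure D4:**
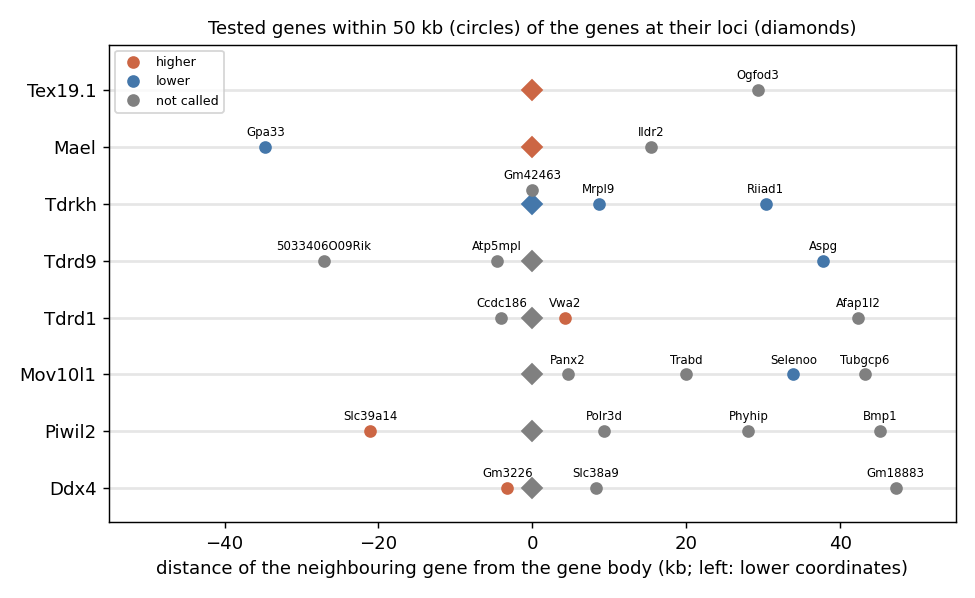
Tested genes within 50 kb (circles; horizontal axis, distance from the gene body in kb) of 8 of the 10 genes (diamonds), coloured by the edgeR call. Blue circles, lower in the KO-labelled libraries, lie beside Tdrkh, Mael, Tdrd9 and Mov10l1, and orange circles, higher there, lie beside Ddx4, Tdrd1 and Piwil2.

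Genes of PRC1.6 and of DNA methylation were measured in the same libraries. Of 15 PRC1.6 subunit genes tested, 3 rose and 1 fell (edgeR; median log2 fold change 0.04), next to 16.5% and 17.2% of all tested genes. With scaling by library size alone 6 rose and 0 fell (0 at an unadjusted p under 0.05), and 5 rose without knockout 2. Max rose from 74.8 ± 4.19 to 103.6 ± 14.2 CPM (0.47 ± 0.08, edgeR adjusted p 0.00019), the deacetylase gene Hdac1 from 131.9 ± 0.0510 to 190.1 ± 21.9 CPM (0.53 ± 0.07) and Yaf2 from 3.65 ± 0.0269 to 6.0 ± 0.434 CPM (0.71 ± 0.20). A list of 13 genes of DNA methylation and related silencing held 8 rises and 4 falls, or 61.5% and 30.8% next to 16.5% and 17.2% of all tested genes. Its rises include the histone H3K9 methyltransferase genes Setdb1, Ehmt1 and Ehmt2 and the corepressor gene Trim28 (0.21 to 0.26), and all 4 of these calls were lost without control 1 (adjusted p 0.070 to 0.256), which left 4 rises. Among the 9 genes of DNA methylation and demethylation themselves 4 rose and 4 fell. The de novo methyltransferase genes Dnmt3b (1.32 ± 0.07) and Dnmt3a (0.31 ± 0.06) and their cofactor gene Dnmt3l (0.47 ± 0.06) rose, and the maintenance genes Dnmt1 (-0.17 ± 0.06) and Uhrf1 (-0.27 ± 0.06) fell. The call of Dnmt1 was lost without control 1 (adjusted p 0.206) or control 2 (0.239), with scaling by library size alone (0.292) and at a minimum of 5 CPM in 2 libraries (0.052). Of the demethylation genes Tet1 fell, from 1715 ± 1.03 to 1125 ± 93.1 CPM (-0.61 ± 0.06), as did Tet2, from 500.0 ± 25.4 to 349.8 ± 27.8 CPM (-0.52 ± 0.07), and Tet3 rose (0.55 ± 0.13). Those named beside Dnmt3b, Tet1 and Tet2 were chosen after their values were seen. Whether these changes bear on the 10 genes was not tested.

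Other genes of the germline gave no single direction either. Of 24 meiosis genes tested, 5 rose and 7 fell (edgeR), or 20.8% and 29.2% next to 16.5% and 17.2% of all tested genes. Hormad1 rose (1.35 ± 0.15), and Smc1b (-1.17 ± 0.08) and Meiob (-1.67 ± 0.18), of meiotic cohesion and recombination, fell. The rises count Sycp1, with counts of 14 and 7 in the controls, against 36 and 42 in the KO-labelled libraries. Sycp1 passed the filter on low counts only through the KO-labelled libraries, where it was high. The rises numbered 3 by DESeq2 and 2 without control 2, where Sycp1, Rec114 and Taf7l lost their calls (adjusted p 0.071 to 0.335). Of 16 primordial germ cell markers, several of which embryonic stem cells share, 7 rose and 3 fell, or 43.8% and 18.8% next to 16.5% and 17.2%. They were led by Dppa3 (2.40 ± 0.19), Tfap2c (0.81 ± 0.07) and the homeobox gene Rhox6 (2.78 ± 0.35). Rhox6 had counts of 16 and 11 in the controls, against 101 and 89 in the KO-labelled libraries, and Rhox9 had 6 and 8, against 47 and 44. Both passed the filter on low counts only through the KO-labelled libraries, where they were high, and the 43.8% counts both. The rises numbered 4 without control 1 or control 2, where Ifitm1, Nanog and Dppa4 lost their calls. The summed level of the 16 markers was 1783 to 1834 CPM in the controls and 1792 to 1814 CPM in the KO-labelled libraries. Of 17 spermatogonial and spermatid markers 9 were tested, of which 2 rose (1 without control 2 or knockout 1) and 3 fell (2 by DESeq2 and without control 1 or knockout 2): Sall4 rose (0.26 ± 0.06; lost without control 2, adjusted p 0.131), and Uchl1 (-0.54 ± 0.10) and Lin28b (-0.47 ± 0.10) fell. The rises made up 22.2% of the 9 and the falls 33.3%, next to 16.5% and 17.2% of all tested genes. More of the 9 fell without knockout 1. The spermatid genes Prm1, Prm2, Tnp1, Acrv1, Odf1 and Pgk2 had 0 counts in all 4 libraries, which allows up to 0.123 to 0.136 CPM in a library.

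Markers of other cell states moved with the groups. All 12 embryonic stem cell markers were tested, with 2 rises and 8 falls (edgeR), or 16.7% and 66.7% next to 16.5% and 17.2% of all tested genes, the falls among them Tfcp2l1 (-0.61 ± 0.06), Dppa5a (-0.61 ± 0.06) and Klf2 (-0.59 ± 0.07). The rises were those of Nanog, lost without control 1 (adjusted p 0.207) or control 2 (0.356), and Sall4, lost without control 2 (0.131). The sum of the 12 markers was 5656 to 5658 CPM in the controls and 4493 to 4589 CPM in the KO-labelled libraries. The 17 markers of the 2-cell-like state, a rare state in these cultures that resembles the early embryo, summed to 1.09 and 0.776 CPM in the controls and to 143.5 and 139.4 CPM in the KO-labelled libraries. Of the 17 markers 15 were tested. Zscan4c, which marks that state, was at 0.195 ± 0.0448 and 18.9 ± 2.25 CPM, Gm21761 at 0.150 ± 0.0193 and 31.3 ± 5.40 CPM, and Usp17le at 0.0635 ± 0.0257 and 16.9 ± 2.55 CPM. Zscan4c, Gm21761 and Usp17le had the smallest adjusted p of this list by edgeR. They passed the filter on low counts only through the KO-labelled libraries, where they were high. In bulk libraries, more or fewer cells of a kind and more or less RNA per cell cannot be told apart, and the part of such cells in the rises of Dazl, Tex19.1 and Mael was not tested.

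Of 10 fibroblast and feeder markers 5 were tested, with 1 rise (Tagln, 1.78 ± 0.43) and 2 falls (Vim, -0.68 ± 0.07, and Fn1, -0.25 ± 0.05). These were 20% and 40% of the 5, next to 16.5% and 17.2% of all tested genes. Postn and Dcn had 0 counts in all libraries. The fibroblast and feeder markers summed to 2253 to 2283 CPM in the controls and 1848 to 1935 CPM in the KO-labelled libraries, most of it Fn1. Of 10 markers of gonadal somatic cells 3 were tested. They held 1 rise and 1 fall, or 33.3% each, next to 16.5% and 17.2% of all tested genes. Gata4, also an endoderm gene, rose (1.91 ± 0.21), and Cyp11a1 fell (-1.56 ± 0.41; lost without control 2, adjusted p 0.107, and at -2.21 without knockout 2). Their sum was 9.02 to 9.97 CPM in the controls and 13.9 to 15.7 CPM in the KO-labelled libraries, and Nr5a1 had 0 counts in all libraries.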

How the data were processed

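The data are a single table of deposited counts, whole numbers per gene symbol with no normalization, for 4 libraries. The authors' tools, per the submitters' processing notes, were cutadapt, HISAT2 and featureCounts, on mm10. For versions, annotation, strand setting and handling of multiply mapped reads, nothing is stated in the sources used here. Columns not mapped to a sample numbered 0. The column names carry OK where the titles carry KO, and they were matched by gene, role and number.

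A filter on low counts was applied with filterByExpr (edgeR 4.0.16, R 4.3.3; minimum count 10, minimum total 15), which left 17482 of 55353, scaled by TMM. The 2 groups were set against each other by edgeR's quasi-likelihood test, 2-sided, without covariates, with 2 residual degrees of freedom and a prior count of 0.125. P-values were adjusted by Benjamini-Hochberg over all genes tested, with a threshold of 0.05. The standard error is the log2 fold change divided by the square root of F, and 95% intervals use the t quantile of the moderated degrees of freedom. The test was also run on counts simulated from the means and dispersions of these same libraries. Such a run cannot show how the test fares where their spread is technical. Gene models and exon lengths come from GENCODE M21 on the same build. Per degree of freedom, chi-square between libraries was 3.37 for the controls and 11.5 for those labelled knockout, so neither pair was 1 library deposited in duplicate. The KO-labelled pair differed more than the control pair, while the test takes a single spread per gene for both groups.

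The genes, the lists and the tests were chosen with earlier results of these data known. Named genes are the 10; Ssrp1 and Supt16; the 6 genes with the smallest adjusted p in each of the 2 lists of further pathway genes; the 3 such genes of each other list; and overlapping genes and the nearest tested neighbours within 50 kb. Of the listed symbols 1, Tdrd10, had no row. Left out of the lists, the neighbours and the counts over them, though part of the fit, are 2 genes that are not reported here. Alternatives were DESeq2 1.42.0, 2 other scalings, 2 other filters, the replicate block, omission of Gm26917 and Gm42418, and each library left out.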

Additional observations from a re-analysis of the deposited data

How the results depend on the processing

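Each result was recomputed under up to 11 alternatives, and none of the called values changed sign. The calls of Dazl, Tex19.1 and Tdrkh were made under all 11, with log2 fold changes of 0.96 to 1.35, 0.58 to 0.89 and -0.96 to -0.77; that of Mael was made under 10. The number of the 10 genes called higher was 3 except without control 1, where it was 2, and the number called lower was 1 to 2 with a library left out. Their median log2 fold change ranged from 0.05 to 0.45 with a library left out. Scaling by library size alone moved the median of all genes to 0.09, gave 3887 higher and 2215 lower genes in place of 2877 and 3000, 2 lower piRNA pathway genes and 5 higher neighbours. DESeq2 gave 2 lower piRNA pathway genes, 1 higher germ cell RNA-binding gene, 1 higher neighbour and 3 lower ones. At a minimum of 5 CPM in 2 libraries, with fewer genes tested, 2 piRNA pathway genes were lower, and 0 of 16 germ cell RNA-binding genes were higher by edgeR (0 at an unadjusted p under 0.05), since Adad2 and Boll were not tested there. With a library left out, all higher genes numbered 1915 to 2995, lower piRNA pathway genes 2 to 6, higher germ cell RNA-binding genes 1 to 2, lower ones 5 to 9, higher neighbours 1 to 3 and lower neighbours 3 to 6. The titles do not say whether replicate numbers pair the libraries. The correlation of the within-group differences over genes was 0.01, which does not settle it. With the replicate block, 2 of the 10 genes were lower, since Piwil2 passed (-0.28, edgeR adjusted p 0.045), and 3072 and 3216 genes were called over all. Tdrd9 and Asz1 are limited by depth.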
